A study of Mus musculus with 35 samples.

Results

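The 10 genes described here mark Purkinje cells or granule cells of the cerebellum, and they were followed through 6 adult mouse tissues. They were listed by symbol. Pcp2, Calb1, Car8 and Pvalb are the Purkinje genes, and Cbln1, Cbln3, Neurod1, Zic1, Zic2 and En2 are the granule genes, which makes 10 of the 55356 genes of the count table. All 10 had higher counts in cerebellum than in brain, by 3.12-fold (Zic2) to 335-fold (Pcp2), and in none of them did any of the 6 cerebellum libraries overlap any of the 6 brain libraries.

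The libraries were made from total RNA of adult C57BL/6J mice, an inbred strain, with no genetic change or treatment in any group. Brain, cerebellum, heart and colon were taken in both sexes, with the ovary of females and the testis of males, which gave 10 groups of 3 libraries each, although male heart had only 2. The libraries were stranded and depleted of ribosomal RNA. Full-length transcripts (Iso-seq) of gonads and of somatic tissues pooled within each sex entered only as gene models. The labels do not say which parts were dissected as brain, nor which libraries came from one animal, so p-values measure the spread between libraries, which may be partly technical. The 29 libraries held 11742417 to 36194255 counted reads, with 19075669 to 27087240 in cerebellum and 24403774 to 36194255 in brain. No pair of libraries within a group held identical counts.

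The cerebellar cortex is built around these neurons. Granule cells are small, very numerous glutamatergic neurons whose parallel fibres contact Purkinje cells, and Purkinje cells are large GABAergic neurons that form the output of the cortex. Pcp2, also called L7, is a small modulator of inhibitory G proteins that is used to mark Purkinje cells, Calb1 (calbindin) and Pvalb (parvalbumin) are calcium-binding proteins, and Car8 is a carbonic anhydrase relative without enzyme activity that binds the inositol trisphosphate receptor Itpr1. Cbln1 and Cbln3 are cerebellins secreted by granule cells, of which Cbln1 organizes synapses between parallel fibres and Purkinje cells. Neurod1 is a transcription factor of differentiating and mature granule cells, Zic1 and Zic2 are zinc finger factors of the granule lineage, and En2 is a homeobox factor that patterns the midbrain and cerebellum. Calb1, Pvalb, Neurod1, Zic1 and Zic2 are also used by neurons outside the cerebellum, and Pvalb by cerebellar interneurons.

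Reads were counted on Iso-seq gene models for 7 genes and on ENSEMBL gene models for Cbln1, Zic2 and En2. All coordinates are on GRCm38.p6. The counted Purkinje gene models were Pcp2 at chr8:3623377-3625282 on the minus strand, Calb1 at chr4:15881264-15908065 on the plus strand, Car8 at chr4:8141494-8239041 on the minus strand and Pvalb at chr15:78191127-78204577 on the minus strand. The counted granule gene models were Cbln1 at chr8:87468405-87472609, Cbln3 at chr14:55878914-55884258, Neurod1 at chr2:79453317-79456694 and Zic1 at chr9:91358062-91360999, all on the minus strand, and Zic2 at chr14:122475435-122479852 and En2 at chr5:28165694-28172166, both on the plus strand. Each spans exons and introns of the gene except those of Neurod1 and Zic1, whose exons form 1 unbroken block. The models differ in how much of the gene they cover. They took in all exon bases of the GENCODE gene for Car8, Cbln1, Zic2 and En2, 97.2% for Cbln3, 92.6% for Pvalb, 87.1% for Calb1, 68.7% for Neurod1, 51.6% for Zic1 and 27.1% for Pcp2. For Pcp2 this was a single transcript of 4 exons and 495 bases, and for Zic1 a single exon of 2938 bases in the 3′ part of the gene. Reads from the rest of these genes were not counted, so levels per length are those of the counted model. Bases outside the GENCODE exons of the gene numbered 1875 for Car8 and 340 for Pvalb. The Neurod1 model held 1502 bases outside the GENCODE exons of Neurod1, and 144 of its bases lie in exons of Cerkl, a gene of the same strand, for which the deposited map gives the same model. Another 154 lie in exons of Gm26755 on the opposite strand.

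Iso-seq gave the most transcripts for Calb1 (10, of 1041 to 4223 bases), Car8 (7, of 923 to 5721 bases) and Cbln3 (6, of 1878 to 4725 bases). Of the 10 Calb1 transcripts, 9 began at the same base and differed at the 3′ end. Because somatic tissues were pooled for Iso-seq, these transcripts cannot be assigned to cerebellum.

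RefSeq entries for the region around the start were at hand for 5 of the 10 genes (Pcp2, Pvalb, Cbln3, Neurod1 and Zic1), with 9 starts in all. Calb1, Car8, Cbln1, Zic2 and En2 had none. The bases before the start are shown for the pair of Purkinje genes with the highest counts per length and for the granule gene with the largest difference between cerebellum and brain, up to 250 bases and only outside the GENCODE gene, from RefSeq on GRCm38.p6, 5′ to 3′ on the minus strand. Capitals mark the 6-base matches found.

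Pcp2, chr8:3625548-3625797, before the RefSeq start at 3625547: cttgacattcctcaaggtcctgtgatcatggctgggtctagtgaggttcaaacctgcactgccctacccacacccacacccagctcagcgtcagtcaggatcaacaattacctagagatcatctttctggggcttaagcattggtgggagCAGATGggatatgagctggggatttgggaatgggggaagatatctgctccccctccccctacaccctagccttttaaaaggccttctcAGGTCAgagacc

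Pvalb, chr15:78206401-78206650, before the RefSeq start at 78206400: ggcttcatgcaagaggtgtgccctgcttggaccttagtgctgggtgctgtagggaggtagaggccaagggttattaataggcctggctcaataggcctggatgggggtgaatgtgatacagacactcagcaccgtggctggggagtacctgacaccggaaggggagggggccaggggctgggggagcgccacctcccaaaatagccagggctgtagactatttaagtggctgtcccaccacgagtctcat

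Cbln3, chr14:55884393-55884506, before the 5′ end of the GENCODE gene: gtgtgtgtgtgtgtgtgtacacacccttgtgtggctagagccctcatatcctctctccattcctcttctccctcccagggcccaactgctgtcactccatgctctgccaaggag

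A set of 5 words of 6 bases was searched on both strands in the 250 bases before each start: AGGTCA, the core of sites of nuclear receptors such as Rora, CAGATG and CAGCTG, forms of the E box of factors such as Neurod1, TAATTA, the core of many homeobox sites, and TATAAA, the TATA box. The words do not overlap each other in the windows printed. The Pcp2 window above held AGGTCA with its first base 12 bases before the start and CAGATG 100 bases before it. The same words stood in 14.0% and 14.4% of the 32851 RefSeq windows of this length. The only Iso-seq transcript of Pcp2 began 265 bases further into the gene, at another of its 4 RefSeq starts, 3625282. The window before that start lies within the GENCODE gene. It held TAATTA 101 bases before the start and TATAAA, on the opposite strand, 114 bases before it (4.84% and 12.4% of windows). It held none of the other words. None of the 5 words, CAGCTG (13.0% of windows) included, was found before the starts of Pvalb, Cbln3, Neurod1 and Zic1. The nearest Iso-seq 5′ end lay exactly at the RefSeq start for Neurod1, 2 bases from it for Cbln3, 35 bases from the nearer of the Pvalb starts and 4769 bases into the gene for Zic1. A match of letters does not show binding, and no match says only that these letters are not in the window.

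The Purkinje genes came first in cerebellum. Levels are given as FPKM, here the deposited count scaled to the counted reads of the library and to the exon length of the counted model. Pcp2 reached 922, 1392 and 1864 FPKM in the lowest, median and highest cerebellum library, against 1.98, 3.35 and 8.16 in brain. The lowest cerebellum library thus lay 113-fold above the highest brain library. The fitted difference was 8.39 on the log2 scale (SE 0.34, adjusted p = 2.68e-15, edgeR), the third largest positive difference of all 29911 genes tested. In bulk tissue, more cells of a type and more RNA per cell cannot be told apart, here and in all comparisons that follow.

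Pvalb stood at 560, 711 and 905 FPKM (lowest, median and highest) in cerebellum and at 21.5, 28.9 and 64.8 in brain, a log2 difference of 4.27 (SE 0.32, adjusted p = 1.67e-10). Every cerebellum library was at least 8.64-fold above every brain library, although brain holds parvalbumin interneurons of its own. Car8 stood at 198, 242 and 324 FPKM in cerebellum and at 2.88, 3.75 and 5.71 in brain, a log2 difference of 5.83 (SE 0.23, adjusted p = 2.47e-15). Calb1 was the Purkinje gene with the highest mean in brain, although Pvalb was above it in female brain libraries 1 and 3. It stood at 168, 185 and 255 FPKM in cerebellum and at 24.8, 40.0 and 46.2 in brain, and its log2 difference was 2.28 (SE 0.23, adjusted p = 2.60e-08).

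In cerebellum the granule genes were lower in level than the Purkinje genes, and their cerebellum and brain libraries did not overlap either. Cbln3 had 43.6, 64.9 and 80.7 FPKM in the lowest, median and highest cerebellum library and 0.0905, 0.307 and 2.18 FPKM in brain, a log2 difference of 6.85 (SE 0.41, adjusted p = 2.27e-12). Cbln1 had a like level in cerebellum (42.1, 68.8 and 80.6 FPKM) and more in brain (0.931, 2.61 and 7.10 FPKM), with a log2 difference of 4.31 (SE 0.39, adjusted p = 7.12e-09). The brain values of both cerebellins spread over a wide range, with a coefficient of variation of 122% for Cbln3 and 77.2% for Cbln1, against 20.7% and 20.5% in cerebellum.

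Among the transcription factors, En2 had the lowest level and the largest difference. It had 5.95, 7.47 and 9.55 FPKM in cerebellum and 0.0694, 0.154 and 0.736 FPKM in brain, which is 7 to 67 reads per brain library, and its log2 difference was 4.84 (SE 0.42, adjusted p = 4.98e-08). Neurod1 had 18.7, 31.3 and 35.03 FPKM in cerebellum and 1.70, 2.12 and 3.31 FPKM in brain (log2 difference 3.55, SE 0.21, adjusted p = 1.59e-11). Zic1 and Zic2 were the pair closest to brain. Zic1 had 30.2, 37.8 and 59.8 FPKM in cerebellum and 5.09, 7.47 and 11.3 FPKM in brain (log2 difference 2.24, SE 0.23, adjusted p = 1.26e-07). Zic2 had 40.3, 46.8 and 56.1 FPKM in cerebellum and 8.51, 15.9 and 18.8 FPKM in brain, so that its lowest cerebellum library was 2.14-fold above its highest brain library (log2 difference 1.64, SE 0.17, adjusted p = 2.15e-07).

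**Figure D1:**
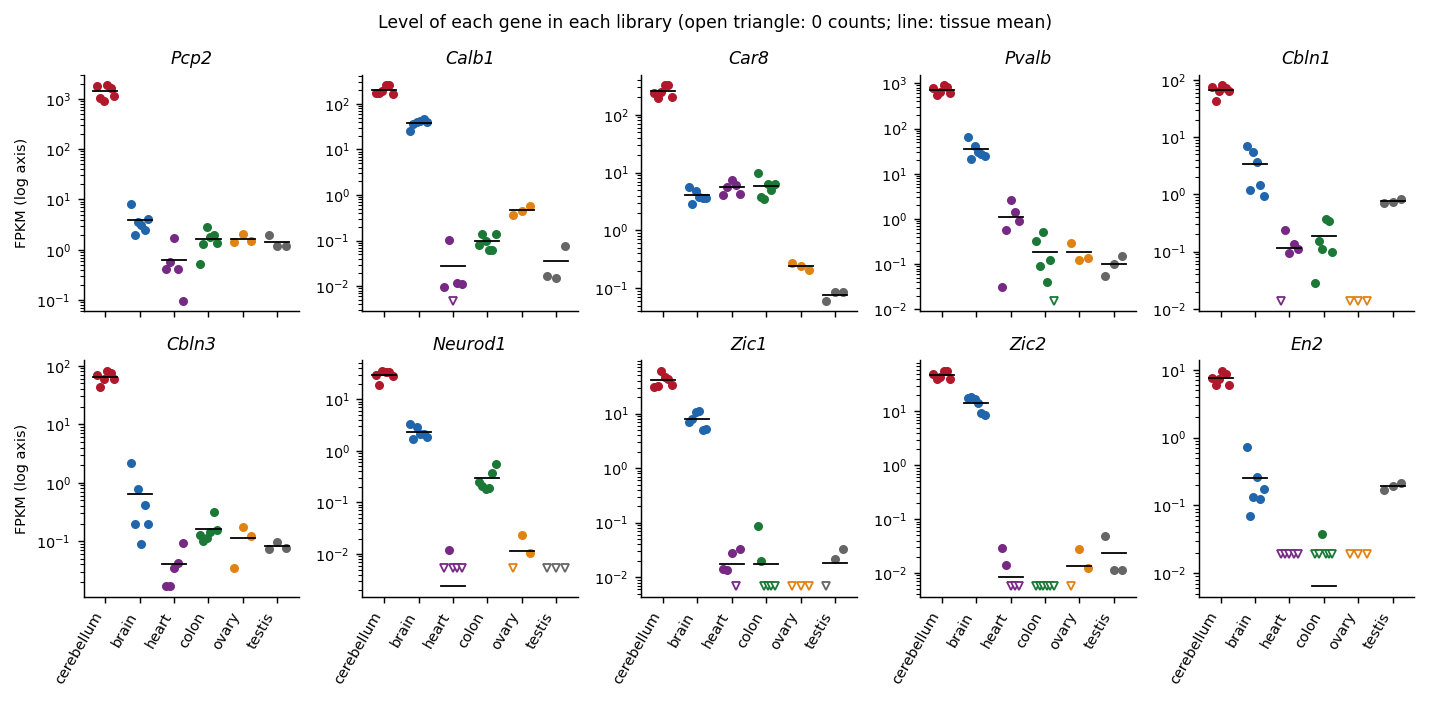
FPKM of each gene on a log axis in each of the 29 libraries, by tissue, with a line at the tissue mean and an open triangle for a library with 0 counts. For every gene the 6 cerebellum points lie above all other points, and for Car8 the heart and colon points lie at the height of the brain points.

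All 10 genes thus passed an adjusted p of 0.05 in the direction of cerebellum, where 10.8% of the genes tested did so and 15.3% passed in the direction of brain. All passed the filter on low counts. The median log2 difference was 5.05 over the 4 Purkinje genes and 3.93 over the 6 granule genes, and 0.00 over all genes tested, whose lower and upper quartiles were -0.45 and 0.40. The order of the mean levels per length in cerebellum was Pcp2, Pvalb, Car8, Calb1, Cbln1, Cbln3, Zic2, Zic1, Neurod1 and En2. Car8 and Calb1 overlapped in the range of their libraries, as did each neighbouring pair from Cbln1 to Neurod1, while the other neighbours did not.

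**Figure D2:**
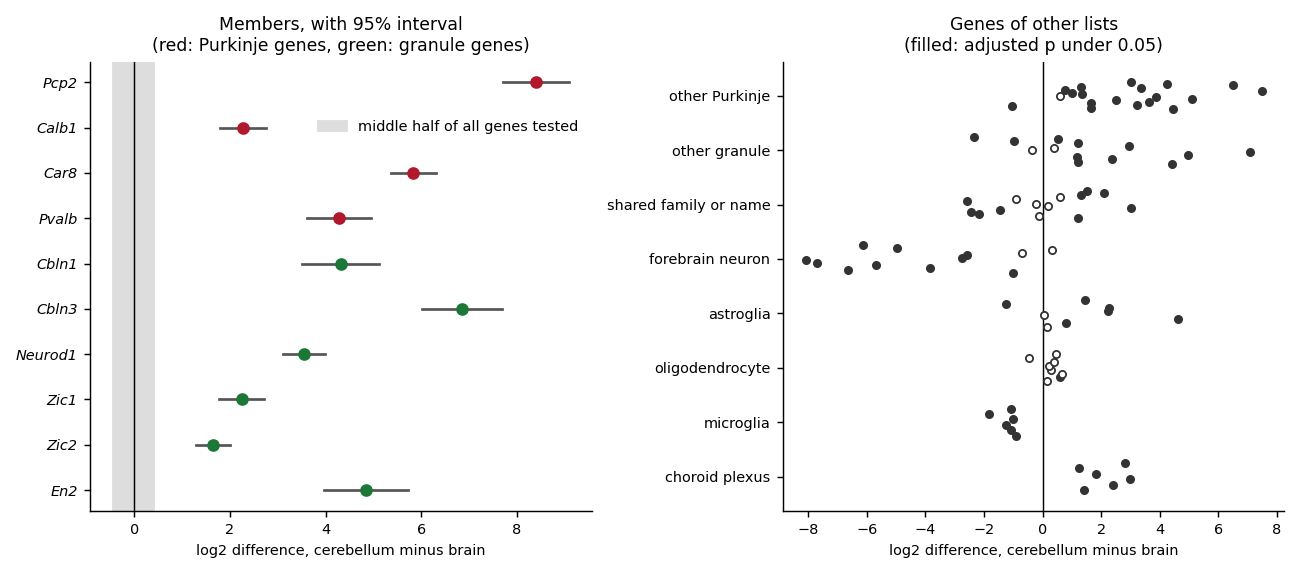
Left, the log2 difference of cerebellum minus brain with its 95% confidence interval for each of the 10 genes, and in grey the span between the quartiles of all genes tested. Right, the same difference for single genes of other lists, filled where the adjusted p was under 0.05: the 10 genes lie right of the grey band, and the other lists fall on both sides of 0.

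Pcp2 shares 182 exon bases of its counted model with that of Pet100, an assembly factor of mitochondrial cytochrome c oxidase on the opposite strand (chr8:3621550-3624233). Pet100 was looked at because of this position, after values were seen. Its single counted transcript has 1192 exon bases, 863 of which lie within GENCODE exons of Pcp2. In the 6 cerebellum libraries Pet100 had 9208 to 17012 counts, and in the 23 other libraries 421 to 1793. In cerebellum its count was 73.5% to 78.4% of the Pcp2 count in every library. In brain Pet100 had 638 to 1010 counts where Pcp2 had 28 to 104. Its log2 difference between cerebellum and brain was 4.02 (SE 0.26, adjusted p = 1.02e-11). The libraries are stranded, but whether strand was used in counting is not stated, so that reads of Pcp2 and of Pet100 cannot be told apart with certainty at these bases. Outside cerebellum, every library had more Pet100 than Pcp2 counts.

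**Figure D3:**
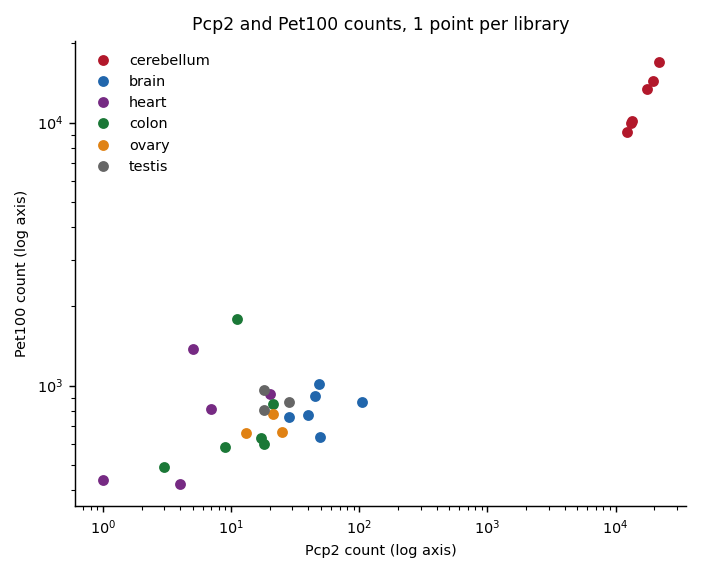
Counts of Pcp2 (horizontal) and of Pet100 (vertical), both on log axes, with 1 point per library coloured by tissue. The 6 cerebellum points stand apart at 12356 to 21689 Pcp2 counts and 9208 to 17012 Pet100 counts, and all other libraries have at most 1793 Pet100 counts.

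Outside cerebellum and brain the 10 genes were low, with a few exceptions. Their share of the summed tissue means that fell to cerebellum was 99.3% for Pcp2, 98.4% for Cbln3, 95.2% for Pvalb, 94.4% for En2, 94.2% for Car8, 93.8% for Cbln1, 91.9% for Neurod1, 84.0% for Calb1, 83.7% for Zic1 and 76.8% for Zic2. Against the mean log2 level of heart, colon, ovary and testis, all 10 were called higher in cerebellum, as were 32.7% of the genes tested. The adjusted p (edgeR) ran from 1.08e-22 to 3.56e-13. All 10 were also called higher in brain than in these tissues, as were 34.3% of the genes tested. Both comparisons use the same 17 libraries.

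Car8 was the one gene for which brain did not come second. Its mean was 5.81 FPKM in colon and 5.53 in heart, against 4.08 in brain. The 3 tissues overlapped, at 3.56 to 9.75 FPKM in colon, 4.17 to 7.44 in heart and 2.88 to 5.71 in brain. Ovary and testis lay lower, at 0.205 to 0.271 and 0.0613 to 0.0851 FPKM. Car8 was called higher in brain than in the 4 tissues by edgeR (log2 difference 2.20, SE 0.16, adjusted p = 3.51e-12). That comparison is with the mean of their log2 levels, in which the low ovary and testis weigh more than in a mean of FPKM.

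Pcp2 had a low count in every library, from 1 to 28 reads in heart, colon, ovary and testis. Its means there were 0.635 to 1.67 FPKM, and the brain libraries overlapped with those of ovary, colon and testis. Cbln3 likewise had 2 to 28 reads in each of the 17 libraries, and its brain libraries overlapped with those of all 4 tissues. The log2 differences of brain from the 4 tissues were 1.68 for Pcp2 (SE 0.27, adjusted p = 5.72e-06) and 2.50 for Cbln3 (SE 0.36, adjusted p = 9.02e-07). They fell to 1.12 for Pcp2 and 1.35 for Cbln3 without female brain libraries 1 and 3, an alternative added after the data were seen, and stayed past the threshold (adjusted p = 0.00499 and 0.00240).

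Single tissues stood out for 5 other genes. Neurod1, which also serves enteroendocrine cells of the gut, had 9 to 25 reads in each colon library and 0 to 2 in each library of heart, ovary and testis. Cbln1 had 62 to 77 reads in each testis library (0.717 to 0.824 FPKM) and 0 in all 3 ovary libraries, where 3 reads would have given 0.0352 to 0.0548 FPKM. En2 had 17 to 23 reads in each testis library, which overlapped with brain in FPKM, and 0 in 13 of the 14 libraries of heart, colon and ovary. Its log2 difference of brain from the 4 tissues was 5.12 (SE 0.61, adjusted p = 5.06e-07), and 4.34 without female brain library 1. Calb1 had 28 to 70 reads in each ovary library against 0 to 11 in heart, colon and testis. Pvalb, which fast skeletal muscle also uses, had 1 to 82 reads per heart library and at most 10 in the other 3 tissues. Zic1 and Zic2 were not detectable above the level of a few reads, with at most 3 and 4 reads in any of the 17 libraries. Zic2 had 0 reads in all 6 colon libraries, where 3 reads would have given 0.0551 to 0.0887 FPKM. These limits cover counting error only.

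Other genes of the same cells were looked at by list. Of 20 further Purkinje genes, 19 were tested and 17 were higher in cerebellum, 1 was lower and 1 was not called, with a median log2 difference of 3.002. The highest were Ppp1r17, a phosphatase inhibitor (7.48, SE 0.33, adjusted p = 1.23e-14), and the corepressor Skor2 (6.48, SE 0.62, adjusted p = 5.26e-07), whose brain libraries held at most 0.161 FPKM and whose difference was 7.36 without female brain library 1. The homeobox factor Lhx1 was at 5.10, the calcium pump Atp2a3 at 4.45, the glutamate transporter Slc1a6 at 4.24 and Itpr1 at 2.51. Foxp2, a forkhead factor of Purkinje cells and of striatal and cortical neurons, was lower in cerebellum (-1.06, SE 0.18, adjusted p = 5.67e-05), with 1.88 to 3.62 FPKM against 3.90 to 5.81 in brain. Pcp4, a calmodulin regulator, was not called (0.60, SE 0.26, adjusted p = 0.101). Aldoc was left out because its counted model joins it with other genes.

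Of 16 further granule genes, 14 were tested, and 9 were higher in cerebellum, 2 were lower and 3 were not called (median 1.20). The GABA receptor subunit Gabra6 had the largest difference (7.09, SE 0.41, adjusted p = 3.64e-11), with 47.8 to 104 FPKM in cerebellum and 0.113 to 1.80 in brain. The protocadherin relative Fat2 (4.97) and the homeobox factor Barhl1 (4.41) were also higher, and Pax6 (1.22) and Etv1 (1.19) had smaller differences. Barhl1 stood at 1.25 FPKM in female brain library 1 and at 0.150 or less in the other 5, and its difference was 5.59 without female brain library 1 and 5.65 without male brain library 1. The vesicular glutamate transporter Slc17a7, which cortical neurons also use, was lower in cerebellum (-2.35, SE 0.33, adjusted p = 3.77e-06), as was the neuronal nuclear marker Rbfox3 (-0.98, SE 0.18, adjusted p = 1.75e-04). The GABA receptor subunit Gabrd and the NMDA receptor subunit Grin2c were not called (adjusted p = 0.334 and 0.186). Atoh1, a factor of granule cell progenitors, was at 0.147 FPKM or less in all 12 libraries and was the third not called.

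The genes related to the 10 in family or name went in both directions. Of 14 genes that share a family or a name with one of the 10, 5 were higher in cerebellum, 4 were lower and 5 were not called, with a median log2 difference of 0.03. Pcp4, which shares only its name with Pcp2, is among those not called. Zic4 (2.08) and Zic5 (1.499) were higher in cerebellum, as were En1 (3.0, SE 0.62, adjusted p = 7.40e-04) and Calb2 (1.21). En1 was at 4.18 without female brain library 1. The other cerebellins were lower, with -2.46 for Cbln2 (SE 0.41, adjusted p = 6.76e-05) and -1.44 for Cbln4 (SE 0.44, adjusted p = 0.0182). Cbln4 was at -2.17 without male cerebellum library 3 and lost its call in 2 of 12 fits that left out a cerebellum or brain library. Also lower were Neurod6 (-2.60), a factor of cortical pyramidal neurons, and Car11 (-2.17), like Car8 a carbonic anhydrase relative without activity. Neurod2 and Car10 were not called (0.18 and -0.12).

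The binding partners of the 10 genes were mixed as well. Of 8 partners, 2 were higher, Itpr1 among them, 2 were lower and 4 were not called. Grid1, a relative of glutamate receptors, was lower in cerebellum (-1.02, SE 0.17, adjusted p = 3.33e-05), as was the neurexin Nrxn2 (-0.42, SE 0.15, adjusted p = 0.0320), which lost its call in 8 of the 12 fits with a library left out. The neurexin Nrxn3 was not called (adjusted p = 0.174).

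The labels were checked with markers of other cells. Of 12 forebrain neuron genes, 10 were lower in cerebellum, 0 were higher and 2 were not called, with a median of -4.41. The cortical factor Tbr1 was at 0.143 to 0.763 FPKM in cerebellum and at 12.9 to 26.0 in brain. All 6 microglia genes were lower in cerebellum (median -1.07). Of 8 astroglia genes, 5 were higher, with 4.61 for the Bergmann glia gene Gdf10, and 1 was lower. Aqp4 (0.80) was called higher but lost its call in 4 of the 12 fits with a library left out. Of 7 genes of cerebellar interneurons, 4 were higher, of which Gad1 lost its call in 1 of the 12 fits, and 1 was lower. Of 8 oligodendrocyte genes 1 was higher and 7 were not called. With a library left out, 1 or 2 oligodendrocyte genes were higher, Mag passing without female brain library 1, female cerebellum library 3 or male cerebellum library 2, and 0 or 1 were lower, Opalin passing without male cerebellum library 3. The 5 endothelial genes did not pass the test (adjusted p from 0.165 to 0.769). All 6 choroid plexus genes were higher in cerebellum (median 2.11), although Otx2 lost its call in 3 of the 12 fits with a library left out. Their summed level ran from 1041 to 3945 FPKM in cerebellum and from 25.1 to 1583 in brain. Ttr alone had a mean of 2886 FPKM in cerebellum and 504 in brain, and made up most of the cerebellum sum. Choroid plexus is a secretory tissue attached to the ventricles, and the part of its amount in the results was not tested.

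Of 6 genes of dentate gyrus granule cells, 3 were higher in cerebellum, 1 was lower and 2 were not called, and Calb1 and Neurod1 themselves are 2 of the 3 higher ones. The dentate gene C1ql2 was at 0.266 to 3.34 FPKM in brain. Of 6 fast skeletal muscle genes, 2 were higher in cerebellum and 4 were not called, with levels of at most 1.70 FPKM in cerebellum. Only 1 muscle gene was higher without female brain library 2, female cerebellum library 1 or male brain library 2 or 3. Of 9 enteroendocrine genes, 8 were tested, of which 0 were higher and 3 were lower, Chgb among them, which lost its call in 11 of the 12 fits with a library left out. Of 7 genes of enteric neurons 3 were higher, 2 were lower and 2 were not called.

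The 6 cerebellum libraries were not alike in the 10 genes. Male libraries 1 and 2 were above the 6-library mean for all 10 genes, and female library 2 and male library 3 for 0 of 10. Relative to the mean, the 4 Purkinje genes averaged 1.27 and 1.21 in male libraries 1 and 2 and 0.791 and 0.820 in female library 2 and male library 3. The 6 granule genes averaged 1.20 and 1.12 in the first pair and 0.728 and 0.876 in the second. The summed level of the 14 further granule genes was 0.722 of the mean in female library 2 and 1.07 in male library 3, and that of the 19 further Purkinje genes was 0.852 and 0.776. Female library 3 was below the mean for the 4 Purkinje genes and for 4 of the 6 granule genes (0.903 to 0.971), with the highest Zic1 of all (59.8 FPKM, 1.47 of the mean) and the lowest Pcp2 (922 FPKM, 0.656 of the mean). Coefficients of variation over the 6 libraries ran from 15.3% for Zic2 to 30.2% for Pcp2.

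Some markers of other cells differed between male libraries 1 and 2 on one side and female library 2 and male library 3 on the other. A list of 12 Hox genes of the hindbrain and spinal cord was chosen after values were seen, and 8 of them have a counted model of their own. These 8 summed to 0.176 and 0.418 FPKM in male libraries 1 and 2, to 4.90 and 3.44 in female libraries 1 and 3, and to 24.1 and 13.0 in female library 2 and male library 3. The glycine transporter Slc6a5, used by hindbrain and cerebellar inhibitory neurons, was lowest in male libraries 1 and 2 (2.27 and 2.42 FPKM) and highest in female library 2 and male library 3 (8.78 and 9.14). The 8 oligodendrocyte genes summed to 1116 and 855 FPKM in male libraries 1 and 2 and to 1487 to 2303 in the other 4. The sum of the 6 choroid plexus genes, most of it Ttr, did not divide the libraries in this way. It was 1041 FPKM in male library 1, 3901 in male library 2 and 2608 to 3945 in the other 4. The part of these markers in the levels of the 10 genes was not tested. Without female libraries 2 and 3 and male library 3, an alternative added after the data were seen, log2 differences from brain ran from 1.87 (Zic2) to 8.81 (Pcp2). Since the libraries left out were low in most of the 10 genes, this raised the difference of 9 of the 10 and says nothing of the stability of the calls.

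**Figure D4:**
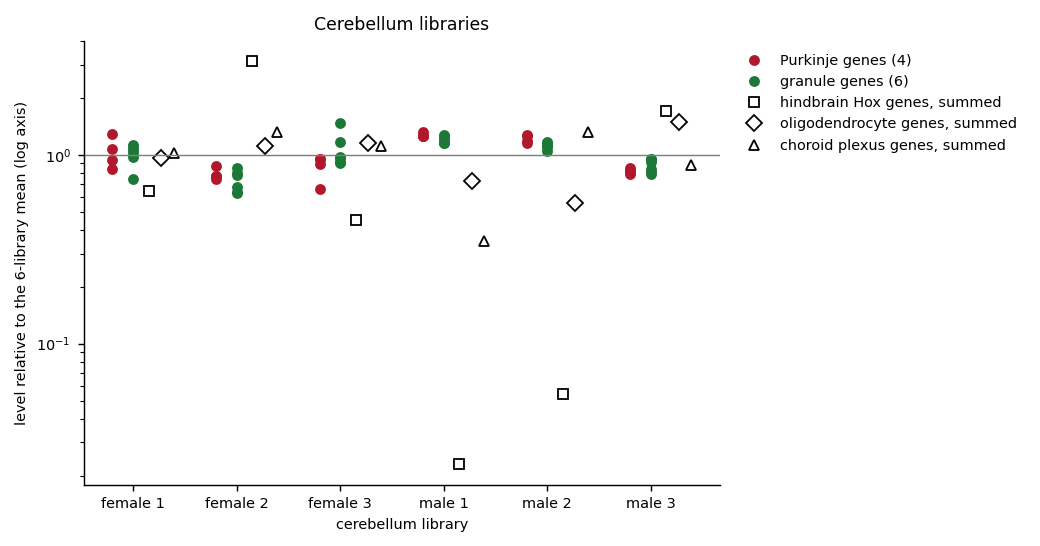
Level in each cerebellum library relative to the mean of the 6, on a log axis, for the 4 Purkinje genes (red), the 6 granule genes (green) and the summed levels of 3 marker lists (open symbols). In male libraries 1 and 2 all 10 genes lie above 1 and the Hox genes far below it, and in female library 2 and male library 3 the reverse holds.

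Among the brain libraries, female library 1 had the highest level of 7 of the 10 genes. Pcp2 was at 8.16 FPKM there and at 1.98 to 4.06 in the other 5, Cbln3 at 2.18 against 0.0905 to 0.791, En2 at 0.736 against 0.0694 to 0.264, Pvalb at 64.8 against 21.5 to 41.7 and Cbln1 at 7.10 against 0.931 to 5.62. Car8 and Neurod1 were also highest in it, and Calb1 was lowest. The same library had the highest En1 (2.15 FPKM against 0.0105 to 0.252), Barhl1 (1.25 against 0.00 to 0.150), Gabra6 (1.80 against 0.113 to 0.766) and Slc6a5 (2.48 against 0.00 to 0.168). The further granule genes were not all high in it. With it left out, the difference of cerebellum from brain rose for Gabra6, Barhl1, Fat2, Mab21l1 (2.95 to 3.56), Calb2, Reln and Atoh1. The difference fell for Gabrd (-0.35 to -0.44), Grin2c, Etv1, Pax6, Chn2, Slc17a7 and Rbfox3. In female library 1 the 8 Hox genes summed to 1.56 FPKM against 0.0336 to 0.451 in the others. Its oligodendrocyte genes summed to 1734 against 826 to 1265, and its 12 forebrain neuron genes to 253 against 303 to 500. The part of these differences in the brain levels was not tested.

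Without this library the difference of En2 between cerebellum and brain was 5.62 in place of 4.84 on the log2 scale and that of Cbln3 7.37 in place of 6.85, and both stayed called (adjusted p = 6.03e-10 and 1.08e-12). Without female brain libraries 1 and 3, the pair with the most choroid plexus signal, Cbln1 was at 5.26, Cbln3 at 8.01 and En2 at 5.88.

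**Figure D5:**
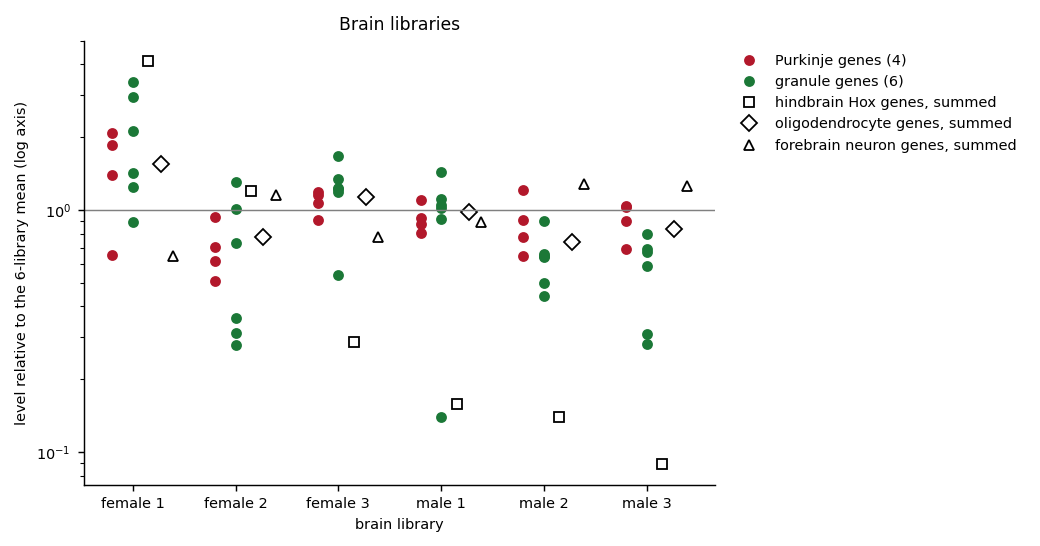
Level in each brain library relative to the mean of the 6, on a log axis, for the same genes and for the summed levels of Hox, oligodendrocyte and forebrain neuron genes (open symbols). Female library 1 has the highest points for 7 of the 10 genes and the lowest forebrain neuron sum.

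The sexes were compared within cerebellum and within brain, with 3 libraries each. In cerebellum 0 of the 10 genes were called by edgeR, where 9 of 29911 genes (0.0301%) were. All 10 differences were positive, from 0.04 (Zic1) to 0.34 (Calb1) on the log2 scale for male minus female, with 95% intervals that held 0, such as -0.39 to 0.99 for Pcp2 and -0.30 to 0.98 for Calb1. The upper bounds of the intervals ran from 0.68 (Zic1 and Zic2) to 1.24 (Cbln1). At an unadjusted p under 0.05 the count was 0 of the 10 and 916 of the 29911 genes tested, and DESeq2 called 0 of the 10. Male libraries 1 and 2, which had the lowest Hox, Slc6a5 and oligodendrocyte levels, were above the 6-library mean for 10 of 10 genes and male library 3 for 0 of 10, and their part in the sex difference was not tested.

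In brain 0 of the 10 genes were called by edgeR or DESeq2, where edgeR called 11 genes (0.0368%), and 3 of the 10 had an unadjusted p under 0.05, as did 1446 of the 29911 genes tested. Cbln3 had the largest difference, -1.99 for male minus female (SE 0.53, 95% interval -3.08 to -0.90, unadjusted p = 9.10e-04, adjusted p = 0.680). Female brain library 1 weighs on it, since the difference was -0.94 without that library (adjusted p = 1.0), and it was called without female brain library 2 (-2.48, adjusted p = 0.0233). The other 2 were Cbln1 (-1.12, adjusted p = 0.998) and Zic2 (-0.66, adjusted p = 0.981). The 6 values of Zic2 did not overlap between the sexes, at 17.1 to 18.8 FPKM in females and 8.51 to 14.7 in males.

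The sex difference was not shown to differ between cerebellum and brain. For this interaction 0 of 29911 genes were called (0.0%) by edgeR, with 1189 genes at an unadjusted p under 0.05, and DESeq2 called 4, with 0 of the 10 genes among them. Cbln3 had the smallest unadjusted p of the 10 (2.31 on the log2 scale, SE 0.69, adjusted p = 1.00), and it was at 1.26 without female brain library 1. It and Zic2 were the 2 of the 10 with an unadjusted p under 0.05.

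Genes with a like profile over the 6 tissues were found by the sum of absolute differences between the shares that each tissue has in a gene's summed means, over the 10683 protein-coding genes that reached a mean of 10 FPKM in some tissue. Nearest to Pcp2 were Ppp1r17 (distance 0.00564) and Gabra6 (0.00964). Nearest to Car8 were Cnpy1 and Fat2, in second place for Pvalb was Fat2, and nearest to Cbln3 Dao, the D-amino acid oxidase, and Iltifb. Nearest to Neurod1 were the glutamate receptor Grm4 and the G protein regulator Rgs8, and nearest to Zic2 Psd2 and the AMPA receptor subunit Gria1. Some pairs lay within the list. Calb1 and Zic1 were each other's nearest gene (distance 0.0102), with Ttr and Klk6 in second place. Pvalb was in second place for Cbln1, and Cbln1 was nearest to En2. The distances rest on 6 tissue means and describe the shape of a profile, not its level.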

How the data were processed

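RNA-seq libraries of 6 adult mouse tissues were compared, grouped by the tissue and sex in their labels. The authors deposited whole-number read counts per gene on an annotation of Iso-seq transcripts combined with ENSEMBL genes, without normalization. Per the labels the build was mm10 and the libraries were stranded (dUTP), and the submitters' processing notes name FastQC 0.11.8, MultiQC 0.9, HISAT2 2.0.5 and featureCounts 1.6.3. The paper states that only uniquely mapped reads were kept, and whether strand was used in counting is not given in the sources used here. All 29 count columns were used, and 0 rows lacked a gene name. The deposited annotation gives exon coordinates, and a deposited map pairs loci with genes. FPKM was computed from counts, the total count and the union of a model's exons.

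Differences were tested with edgeR 4.0.16 (R 4.3.3), by the quasi-likelihood test with TMM factors, the filter on low counts by group and 1 mean per group, in 1 fit over all libraries (29911 genes). P-values are two-sided, with the Benjamini-Hochberg adjustment made across the whole table and calls at 0.05, and SEs are the log2 difference over the root of F. The code was tested on simulated data. The genes and lists were chosen with earlier results of these data known. Named genes are the 10, those of the lists and the 2 nearest profiles of each, some of which are not reported here. Pet100 and the Hox list were added after values were seen. Genes on a model joined with other genes were left out of lists, except Neurod1. Alternatives were DESeq2 1.42.0, its size factors, no filter, blocks, cerebellum and brain alone, other length or scaling, and leaving out libraries. Correlations of same-numbered libraries are in the closing section. Replicate libraries differed by more than sampling noise.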

Additional observations from a re-analysis of the deposited data

Results flagged for a closer look

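Dixon's test compares the gap from a library to its nearest neighbour with the whole range. Chance sets apart about 1 in 20 where values are normally distributed, a rate that does not hold for sets of a few reads. Of 38 sets of tissue libraries, 8 had a library set apart from the rest, from which no excess over chance can be read. In female brain library 1 these were Pcp2 (8.16 FPKM, next library 4.06), Cbln3 (2.18 FPKM, next 0.791) and En2 (0.736 FPKM, next 0.264), which rest on 104, 265 and 67 reads.

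The other 5 rest on 28 reads or fewer. Cbln3 was at 0.315 FPKM in male colon library 2 (28 reads, next library 0.159). Calb1 was at 0.104 FPKM in female heart library 2 (11 reads, next 0.0121). Zic1 was at 0.0870 FPKM in female colon library 1, which is 3 reads. En2 was at 0.0384 FPKM in female colon library 3, which is 2 reads, and Neurod1 at 0.0118 FPKM in female heart library 2, which is 1 read.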

How the results depend on the processing

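The 10 genes kept their direction and stayed called in all 180 values of the comparison of cerebellum with brain (18 alternatives, highest adjusted p 2.61e-06), and in all 280 values of each comparison with heart, colon, ovary and testis (28 alternatives each, highest adjusted p 2.89e-11 for cerebellum and 1.11e-04 for brain). They were also called without female brain replicates 1 and 3, chosen after the data were seen, with a highest adjusted p of 0.00499. With the cerebellum and brain libraries alone in the fit, 4896 genes were higher and 4913 lower in cerebellum, in place of 3232 and 4564. Between the sexes none of the 10 was called in cerebellum or in the interaction under any alternative. In brain 0 to 1 of the 10 was called when a library was left out (Cbln3 without female brain replicate 2).

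Counts of all genes called moved more between the sexes. DESeq2 called 21 genes in cerebellum, 35 in brain and 4 in the interaction, in place of 9, 11 and 0. Blocking by the leading digit of the library code written with 2 digits (0 for codes under 10), whose meaning the labels do not give, left 3 genes in cerebellum, and leaving out a library gave 0 to 4 genes in the interaction (4 without male cerebellum replicate 3). The cause of these changes was not tested.

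Replicate numbers are shared between tissues. Same-numbered cerebellum and brain libraries did not deviate together (correlations 0.051, 0.036 and 0.085 in females, -0.03, -0.021 and 0.041 in males), so the numbers were not taken as pairs. With the replicate number as a block, 7 genes were called between the sexes in brain in place of 11 and 7073 between cerebellum and brain in place of 7796, and all 10 genes stayed called there. With the longest transcript as the length, all 10 genes kept their place in the order of levels in cerebellum. For genes with under 30 reads per library, depth limits what can be compared.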
